A study of Mus musculus with 7 samples.

Results

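The miR-379 to miR-410 cluster is an array of miRNA hairpins in the imprinted Dlk1-Dio3 domain on distal mouse chromosome 12. Its members were taken by position alone, as all mature miRNA loci in a window of chromosome 12 that begins upstream of miR-379 and ends downstream of miR-410 in the mm9 build, which gave 71 of the 806 loci measured, with starts from 110947275 to 110986138. The 71 loci came from 36 hairpins over 38885 bp, the 67 with a reference sequence all on the plus strand, and 35 hairpins gave both a 5p and a 3p product. Each member had a sequence at 1 locus only, so none shares its reads with an identical copy. The last hairpin in the window, miR-3072, lies downstream of miR-410 and was kept under the rule.

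Genes of this domain are expressed mainly from a single parental allele. The protein-coding genes Dlk1, Rtl1 and Dio3 are read mainly from the paternal chromosome, and the non-coding RNAs Meg3, Rian and Mirg, together with the miRNAs, from the maternal one. The cluster is cut from long non-coding transcripts, is expressed mainly in brain in the adult, and is known for activity-regulated members that shape dendrites and spines, of which miR-134 is the best studied. A mature miRNA finds its targets mainly through bases 2 to 8, the seed.

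Small RNA was sequenced from pooled hippocampi of adult C57BL/6 mice of 3 to 5 months in 7 libraries. NIPP1* mice carry the PP1-binding domain of a nuclear inhibitor of protein phosphatase 1 fused to EGFP under a tetO promoter, together with a transactivator driven by the CaMKIIalpha promoter, so that doxycycline in the diet switches it on in forebrain neurons. Control mice were littermates labelled wildtype. Trained mice explored objects in an object recognition task, and non-trained mice were put in the chamber without that training. The labels assign library 1 to controls without training, library 2 to NIPP1* mice without training, libraries 3, 4 and 5 to trained controls and libraries 6 and 7 to trained NIPP1* mice. How animals were divided among the libraries of a group was not stated in the sources used here, so p-values measure only the spread between these libraries, which may be technical.

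The totals of miRNA reads ran from 7285201 in library 6 to 10017745 in library 7. Levels are given as reads per 1000000 miRNA reads of the library (RPM). In bulk tissue, fewer cells that express a miRNA and less of it in each cell cannot be told apart. Small RNA does not measure the transgene, so the labels of genotype were not checked against it. The group means in the deposited tables were rebuilt by the other assignment of the trained libraries. Over 40 members, the mean of libraries 6 and 7 rebuilt the tables' trained control values within 0.0035% (root mean square), against 13.5% for the labelled libraries 3, 4 and 5. The mean of libraries 3, 4 and 5 rebuilt the tables' trained NIPP1* values within 0.0026%, against 14.8% for libraries 6 and 7. The labels are used throughout, and every direction that sets the trained genotypes apart turns under the grouping of the tables. The miRNA markers of neurons summed to between 216550 and 245978 RPM in the 7 libraries, and those of hindbrain to between 26.9 and 48.0 RPM, so neuronal markers were present in each library labelled hippocampus. Markers of choroid plexus ranged from 417 RPM in library 5 to 1178 RPM in library 3, and those of oligodendrocytes ran from 3266 RPM in library 4 to 5461 RPM in library 1. Their part in the values of the cluster was not tested.

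The mature sequences below, from RefSeq (GRCm38.p6), are those of the most abundant members and of miR-134, with the seed in capitals. All 67 members found in RefSeq had their whole sequence in the plus-strand mm9 bases of their locus. miR-376c-3p, miR-487b-3p, miR-539-3p and miR-485-5p are named only.
miR-541-5p: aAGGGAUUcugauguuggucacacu
miR-369-3p: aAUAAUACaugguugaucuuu
miR-379-5p: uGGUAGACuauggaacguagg
miR-381-3p: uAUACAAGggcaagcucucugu
miR-411-5p: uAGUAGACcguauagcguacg
miR-300-3p: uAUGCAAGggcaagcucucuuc
miR-134-5p: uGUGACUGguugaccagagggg

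The hairpins of the cluster resemble each other, and the sequences show how far this goes. miR-300-3p and miR-381-3p matched at 19 of 22 positions and miR-379-5p and miR-411-5p at 14 of 21, each pair with 6 of 7 seed bases in common, so their seeds differ. A full seed was shared within the cluster in 4 cases, which covered 8 of the 67 members with a sequence. The other members had a seed that no second member carried, and there were 63 distinct seeds. The 8 that shared a seed are given here in pairs, each pair with the same capitals.
miR-379-5p: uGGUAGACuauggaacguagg
miR-1193-5p: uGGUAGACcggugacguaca
miR-379-3p: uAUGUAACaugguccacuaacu
miR-411-3p: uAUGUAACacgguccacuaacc
miR-376b-5p: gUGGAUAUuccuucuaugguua
miR-376c-5p: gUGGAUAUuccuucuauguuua
miR-410-5p: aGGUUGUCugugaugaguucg
miR-494-5p: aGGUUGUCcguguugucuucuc

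Within a seed pair, the members were far apart in level in most cases. miR-379-5p had a mean of 2214 RPM, while miR-1193-5p had 3 reads in all over the 7 libraries. miR-376b-5p, at 558 RPM, and miR-376c-5p, at 1.01 RPM, matched at 21 of 22 positions. How reads with a mismatch were divided between such near-copies was not given in the sources used here, so the low value of miR-376c-5p is uncertain. The pair of similar level was miR-379-3p and miR-411-3p, which matched at 20 of 22 positions and had means of 44.9 and 77.3 RPM. The remaining pair, miR-410-5p and miR-494-5p, had means of 1.87 and 0.216 RPM.

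Some seeds were also carried by miRNAs that are not members. In RefSeq, 13 seeds of members were shared with such a mature miRNA. One such miRNA, miR-1197-5p, has the seed of miR-758-5p and is itself the unmeasured arm of a hairpin of the cluster. Other shared seeds were that of miR-329-3p, shared with miR-362-3p, and that of miR-410-3p, the main product of the hairpin that gives the cluster its end, shared with miR-344d-3p. miR-362-3p had a mean of 18.1 RPM and miR-329-3p of 26.3 RPM. The sequences of these pairs show a match in the capitals and little beyond them.
miR-329-3p: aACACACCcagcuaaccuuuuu
miR-362-3p: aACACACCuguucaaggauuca
miR-410-3p: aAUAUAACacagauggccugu
miR-344d-3p: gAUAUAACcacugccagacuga

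Reads of the cluster made up from 1.32% to 1.59% of each library's miRNA total, 875880 reads in all 7 libraries together. The level was uneven among the members. A mean of at least 1000 RPM was reached by 3 members, 17 lay from 100 to 1000 RPM, 22 from 10 to 100 RPM, 16 from 1 to 10 RPM and 13 below 1 RPM. The 6 most abundant members made up between 62.9% and 67.4% of the reads of the cluster. Of the 71 members, 62 were read in every library, 57 had a mean of at least 10 reads and could be tested, and 40 had a mean of at least 100 reads. The 14 members below the minimum for testing were mostly the minor arm of their hairpin, and each had between 1 and 59 reads in all.

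miR-541-5p, the most abundant member and 45th of all 756 mature sequences, lies at chr12:110980632-110980656 in an intron of Mirg. Its level was 3012 RPM in library 1, 2836 in library 2, 2701, 3306 and 2800 in the trained controls, and 3027 and 2978 RPM in the trained NIPP1* libraries. The highest library was 1.22-fold over the lowest, the smallest such ratio among the 40 members with a mean of at least 100 reads. miR-369-3p, 49th of all, lies at chr12:110981676-110981696 in an intron of Mirg. Its level was 2817 and 2179 RPM in libraries 1 and 2, 2693, 2017 and 1764 RPM in the trained controls, and 2532 and 2371 RPM in the trained NIPP1* libraries. The trained controls ranged from near the highest of all libraries to the lowest, on both sides of the trained NIPP1* group.

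miR-379-5p, which opens the cluster at chr12:110947275-110947295, had 2315 RPM in library 1, 2087 in library 2, 2108, 2041 and 1903 in the trained controls, and 2431 and 2613 in the trained NIPP1* libraries. The labelled trained groups did not overlap, with 2017 RPM ± 105 (SD, n = 3) in controls and 2522 RPM ± 129 (SD, n = 2) in NIPP1* mice, and library 1 lay between them. Its neighbour of similar sequence, miR-411-5p, had a mean of 775 RPM and spanned 704 RPM in library 4 to 870 RPM in library 7. miR-381-3p, a regulator of dendrite growth, spanned 725 RPM in library 6 to 1086 RPM in library 2, and miR-300-3p spanned 511 RPM in library 5 to 660 RPM in library 7. For miR-300-3p and miR-381-3p, which are near-copies, the libraries with the extreme values were different.

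miR-134-5p represses translation of the kinase Limk1 in dendrites and limits spine size. It lies at chr12:110972355-110972376 and was 19th within the cluster, with 216 RPM in library 1, 197 in library 2, 162, 207 and 180 in the trained controls and 189 and 184 in the trained NIPP1* libraries. The groups overlapped, with means of 183 RPM ± 22.3 (SD, n = 3) in trained controls and 187 RPM ± 3.89 (SD, n = 2) in trained NIPP1* mice. miR-485-5p, which is known for a role at the presynapse, had 450 and 461 RPM in libraries 1 and 2, 385, 698 and 610 in the trained controls and 455 and 408 in the trained NIPP1* libraries. Here the spread lay within the trained controls, with library 3 the lowest of all libraries and library 4 the highest. miR-329-5p, from a hairpin that acts with miR-134 in dendrite growth, ran from 43.5 RPM in library 6 to 65.6 RPM in library 1.

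The miR-376 family, whose precursors are known substrates of A-to-I editing, gave 6 members. Their means were 558 RPM for miR-376b-5p, 325 RPM for miR-376a-5p, 164 RPM for miR-376a-3p, 89.0 RPM for miR-376b-3p, 81.1 RPM for miR-376c-3p and 1.01 RPM for miR-376c-5p. Reads with a mismatch from editing were not followed here. Other known members were of moderate level, with means of 245 RPM for miR-409-3p, 203.7 RPM for miR-323-3p, 54.4 RPM for miR-410-3p, 46.6 RPM for miR-154-3p and 24.6 RPM for miR-495-3p, a regulator of Bdnf. The miR-377 hairpin was low on both arms, with means of 5.26 RPM for miR-377-5p and 4.73 RPM for miR-377-3p.

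**Figure D1:**
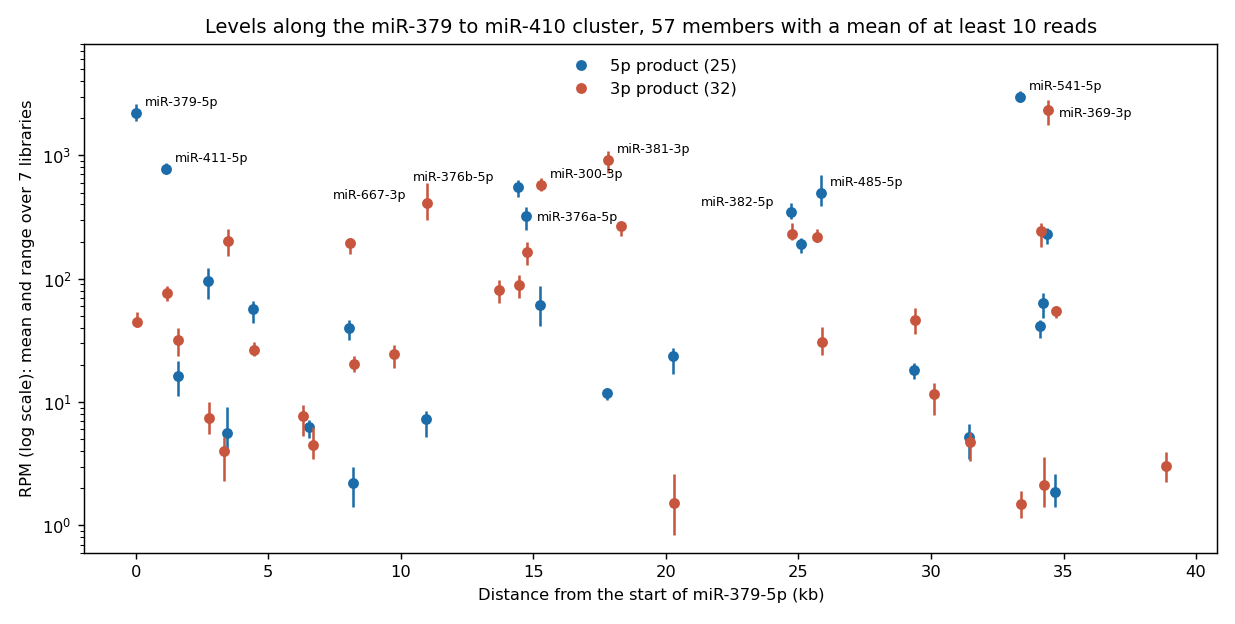
Mean level of the 57 members that averaged 10 reads or more (points, RPM on a log axis) against the distance from the start of miR-379-5p in kb, with lines for the range over the 7 libraries and colours for the arm of the hairpin. The highest members stand toward both ends of the cluster, miR-379-5p at 2214 RPM on one side and miR-541-5p and miR-369-3p at 2951 and 2339 RPM on the other, among neighbours that are far lower.

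The level did not follow the order of the hairpins. The gene Mirg is annotated at chr12:110973191-110987665 in mm9 (GENCODE vM1), and 13 members lay in its introns, 5 overlapped its exons and 53 lay outside it. miR-541-5p and miR-541-3p, cut from the same hairpin, had means of 2951 and 1.5 RPM, and miR-377-5p and miR-496a-3p, from the hairpins just upstream, had 5.26 and 11.7 RPM. The plot of levels along the cluster shows this as points spread over the whole height of the axis at nearly the same distance.

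The order of the arms was the same in every library for the hairpins with enough reads. Of the 35 hairpins with both arms measured, 27 had a mean of at least 100 reads summed over the arms. The 5p arm was the higher in 12 of them and the 3p arm in 15, and all 27 kept the same order in all 7 libraries. Below that minimum the order could change: in miR-377, with a mean of 84 reads over both arms, the 5p arm was the higher in 4 of 7 libraries, and in miR-539 in 5 of 7. In 17 hairpins the higher arm exceeded the lower by more than 10-fold. The most uneven were miR-668, where the 5p arm had 1 read in all 7 libraries and the 3p arm a mean of 217.8 RPM, miR-541, where the 5p arm made up 99.9% of the reads of the hairpin, and miR-487b, where the 3p arm made up 99.6%. The most even were miR-382, with 349 RPM on the 5p and 230 RPM on the 3p arm, miR-299a, with 16.3 RPM on the 5p and 31.7 RPM on the 3p arm, and miR-376a, with 325 RPM on the 5p and 164 RPM on the 3p arm. For miR-382, the share of the 5p arm ranged from 52.1% to 64.8% among libraries. Neighbouring and similar hairpins differed in the arm that led as counted: the 3p arm in miR-376c and the 5p arm in miR-376b and miR-376a. For miR-376c and miR-376b this is uncertain, since it rests on how reads were divided between the near-copies miR-376c-5p and miR-376b-5p. The values carry no strand, and the annotation places a miRNA gene on the minus strand at 4 hairpins, miR-299a, miR-380, miR-376a and miR-409, so reads from that strand cannot be told apart there.

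**Figure D2:**
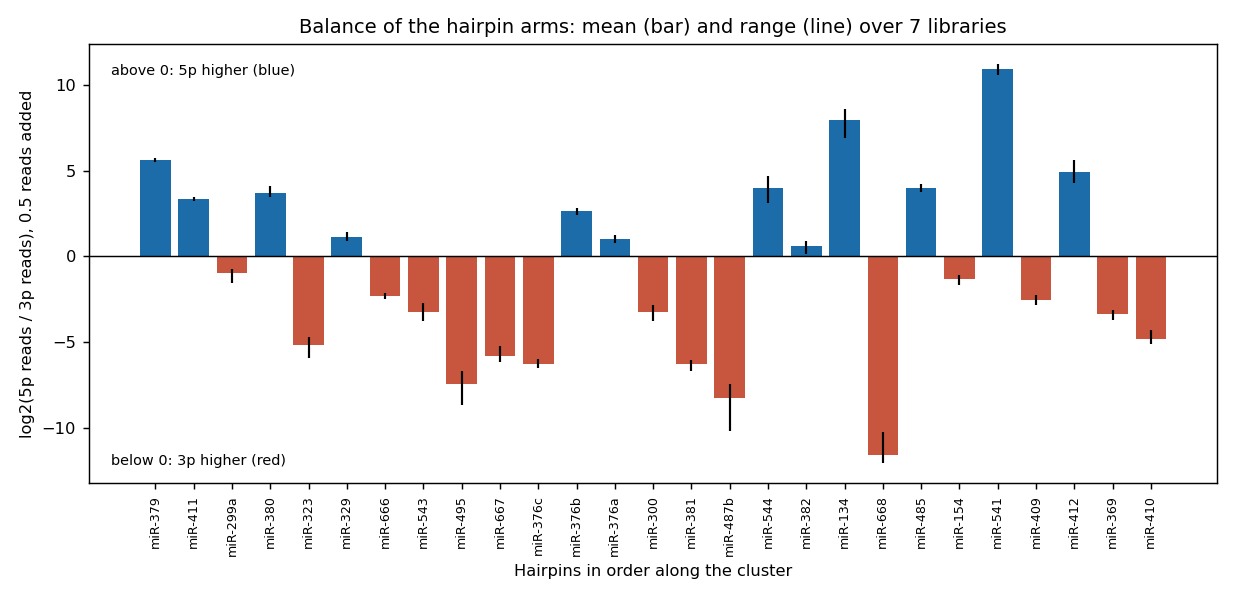
Log2 ratio of 5p to 3p reads (0.5 reads added to each) for the 27 hairpins that averaged 100 reads or more, in order along the cluster, with bars for the mean of 7 libraries and lines for their range. Bars above 0 mark hairpins led by the 5p arm (12) and bars below 0 those led by the 3p arm (15), and no line crosses 0.

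The summed level of the cluster was 15867 RPM in library 1 and 14680 RPM in library 2. It was 14915, 15070 and 13242 RPM in the trained controls, a mean of 14409 RPM ± 1014 (SD, n = 3), and 14990 and 15511 RPM in the trained NIPP1* libraries, a mean of 15251 RPM ± 368 (SD, n = 2). Library 5 was the lowest, with 1.32% of its miRNA reads (95% Wilson interval 1.32% to 1.33%, counting error only), and the other libraries lay within the range from 14680 to 15867 RPM. With TMM factors library 5 had 13921 RPM and with DESeq2 size factors 14114 RPM, still the lowest, and with the latter library 2 came close at 14157 RPM. The other miRNAs of the domain, 30 sequences upstream of the cluster, summed to between 37323 RPM in library 3 and 45923 RPM in library 7. Library 5 was low for these too, at 37510 RPM, and library 3, low for these, was not low for the cluster.

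**Figure D3:**
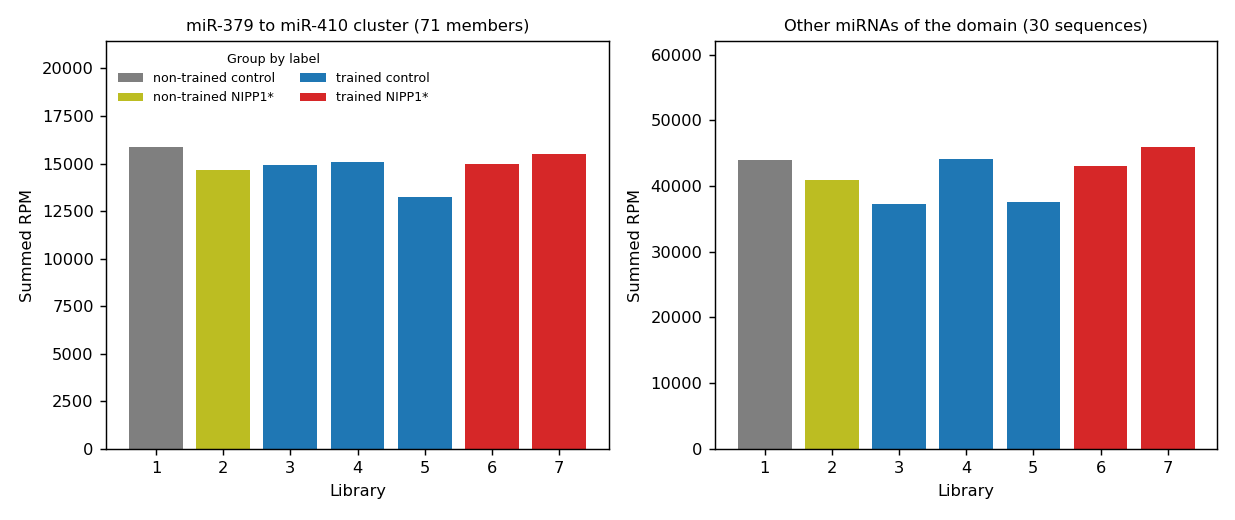
Summed RPM of the 71 members of the cluster (left) and of the 30 other miRNA sequences of the domain (right) in each of the 7 libraries, coloured by the group in the labels, with bars from 0. The cluster stays between 13242 RPM in library 5 and 15867 RPM in library 1.

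Most of the variation among libraries was small. Among the 40 members with a mean of at least 100 reads, the highest library was at most 2.13-fold over the lowest, and for 38 members it was within 2-fold. The median ratio was 1.47, beside 1.45 for all 319 sequences with that many reads. The median SD of log2(RPM + 0.5) over the 7 libraries was 0.19 for the members and 0.19 for all. Library 5 stood apart among the members: 22 of the 40 had their lowest level there, 55% beside 30.1% of all 319 sequences, and 5 of 40 were above their own mean. The median deviation of the members from their own mean in library 5 was -0.21 on the log2 scale, and that of all sequences -0.08. Library 5 also had the lowest sum of the pituitary and hypothalamus markers, 7580 RPM against up to 14244 RPM in library 1, and the highest sum of blood vessel markers, 18540 RPM against 14865 RPM or more elsewhere. Their part in the low level of the cluster was not tested.

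The deviations differed with base composition. In library 5, the 27 members with a GC content below 50% had a median deviation of -0.27 and the 13 with a GC content of at least 50% one of -0.08. In library 4 these medians were -0.04 and 0.12. Across the 40 members, Pearson's r between GC content and deviation was 0.51 in library 4, 0.50 in library 5 and -0.57 in library 3, and across all 319 sequences it was 0.43, 0.33 and -0.32. These are descriptions across sequences that share libraries, and the part of base composition in the group differences was not tested. miR-667-3p, with a GC content of 65.2%, is one of the GC-rich members: it had 345 and 393 RPM in libraries 1 and 2, 354, 602 and 516 RPM in the trained controls and 394 and 299 RPM in the trained NIPP1* libraries. Its high libraries, 4 and 5, were those of miR-485-5p, while library 3 of the same group lay among the low ones.

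**Figure D4:**
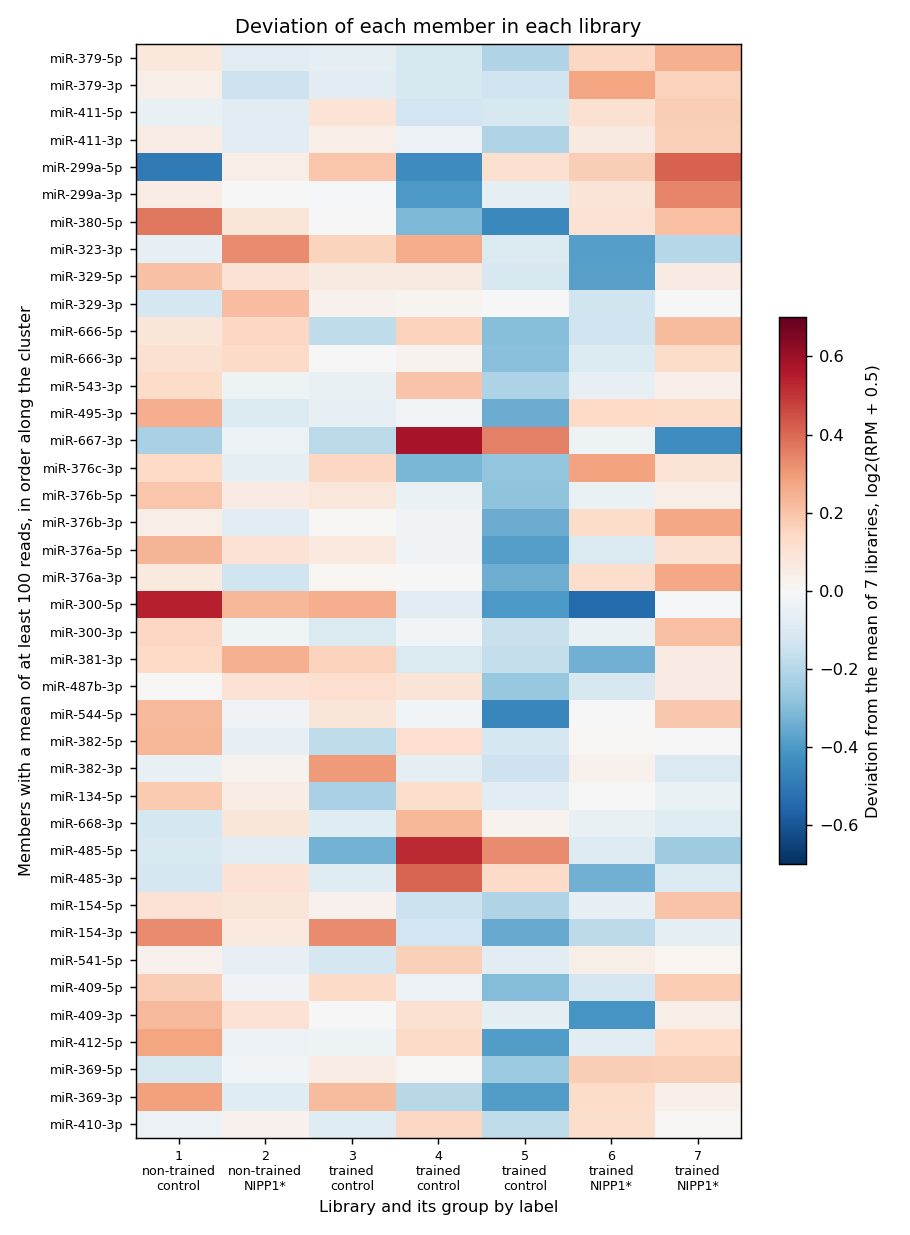
Deviation of the 40 members with a mean of at least 100 reads (rows, in order along the cluster) in each library (columns, with the group by label) from the member's mean over 7 libraries, in log2(RPM + 0.5), red above and blue below. The column of library 5 is blue for 35 of the 40 members, and miR-667-3p, miR-485-5p and miR-485-3p are red in libraries 4 and 5.

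Whether the transgene alone moved the cluster is asked by the non-trained libraries, which had 1 library each and were compared by their counts, with no test run between them. Of the 41 members that averaged 100 reads or more over these libraries, 0 passed a log2 ratio of 1 in either direction, beside 0.621% of all 322 sequences that were higher and 0.311% that were lower in NIPP1*. The log2 ratios of NIPP1* to control ran from -0.37 to 0.57 with a median of -0.12, and the median of all sequences was 0.02. With a minimum of 1000 reads the medians were -0.06 for 20 members and -0.0005 for all 176 sequences. Between the same libraries 1 and 2, markers of oligodendrocytes had 5461 and 4400 RPM, those of pituitary and hypothalamus 14244 and 10025 RPM and those of red blood cells 131.9 and 95.7 RPM. Those of choroid plexus went the other way, with 609 and 819 RPM. The part of these markers was not tested. The 95% counting interval lay above 0 for 7 members, with a background of 31.4% of all sequences, and below 0 for 16, with a background of 28.3%. These intervals cover counting error only, and say nothing of the spread between animals.

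The members at the edges of this comparison can be read from their counts. miR-299a-5p had 99 reads in library 1 and 133 in library 2, a log2 ratio of 0.57 (95% exact interval 0.18 to 0.96). miR-323-3p had 1719 and 2038 reads, a log2 ratio of 0.38 (0.29 to 0.48), while miR-329-3p, with 214 and 247 reads, had a ratio of 0.35 (0.08 to 0.62). On the lower side, miR-369-3p had 25045 and 17590 reads, a log2 ratio of -0.37 (-0.40 to -0.34). miR-495-3p had 260 and 184 reads, a ratio of -0.36 (-0.64 to -0.08), and miR-412-5p had 680 and 495 reads, a ratio of -0.32 (-0.49 to -0.15). miR-134-5p had 1918 and 1589 reads, a ratio of -0.13 (-0.23 to -0.04). The 3 members named on the higher side differed by less than 1.5-fold, and so did those on the lower side.

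The effect of training in control mice was asked by libraries 3, 4 and 5 against library 1. No member passed an adjusted p under 0.05 in limma, and 0% of all 476 tested sequences did. The smallest adjusted p of a member was 0.67. At an unadjusted p under 0.05 there was 1 of 57 members, beside 5.88% of all tested sequences, and edgeR and DESeq2 called 0 members, with 0% and 0.21% of all sequences called. The log2 difference was below 0 for 42 of 57 members, with a median of -0.20, and above 0 for 15 members. Of all tested sequences 40.5% lay above 0, with a median of -0.09. Library 1 lay outside the range of the 3 trained controls for 5 of the 8 marker lists. These were neurons, with 245978 RPM against 216550 to 245144 RPM, and leukocytes and microglia, with 592 RPM against 462 to 589 RPM. The others were oligodendrocytes, with 5461 RPM against 3266 to 3707 RPM, pituitary and hypothalamus, with 14244 RPM against 7580 to 11201 RPM, and blood vessels, with 14890 RPM against 15553 to 18540 RPM. Their part in the median of the members was not tested. With DESeq2 size factors the medians of the members and of all sequences were -0.11 and -0.004. Size factors move all sequences of a library nearly alike, so they could not change the gap between these medians by much. The other miRNAs of the domain had a median of -0.08, with 11 of 24 above 0. Without library 5 the median of the members was -0.13, and with the trained libraries grouped as in the tables it was -0.06.

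In this comparison the lowest members were miR-380-5p, miR-300-5p and miR-543-5p. miR-380-5p, a repressor of p53 in neural cells, had 121 RPM in library 1 and 93.5, 75.3 and 68.6 RPM in the trained controls, a log2 difference of -0.63 (SE 0.23, adjusted p = 0.67 in limma). All 3 trained controls lay below the non-trained control library, and library 2 with 99.7 RPM lay above all of them. miR-300-5p had 87.3 RPM in library 1 and 71.3, 56.5 and 45.2 RPM in the trained controls, a log2 difference of -0.62 (SE 0.32, adjusted p = 0.67). miR-543-5p had 2.81 RPM and 1.95, 1.68 and 1.41 RPM, a log2 difference of -0.61 (SE 0.32), at a depth of 18.4 reads per library. On the higher side stood miR-667-3p with 0.47 (SE 0.31), miR-299a-5p with 0.45 (SE 0.31) and miR-323-5p with 0.42 (SE 0.35), with adjusted p-values of 0.67, 0.67 and 0.72 in limma. Under the grouping of the tables the difference was -0.01 for miR-667-3p, -0.21 for miR-380-5p, -0.25 for miR-543-5p, -0.81 for miR-300-5p, 0.08 for miR-323-5p and 0.79 for miR-299a-5p.

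The effect of training in NIPP1* mice was asked by libraries 6 and 7 against library 2. Again 0 of 57 members were called by limma, edgeR or DESeq2, beside 0%, 0% and 0.42% of all sequences. The log2 difference was above 0 for 30 members and below 0 for 27, with a median of 0.03. Of all tested sequences 43.9% lay above 0, with a median of -0.03. Without library 7 the median of the members was -0.02. With the trained libraries grouped as in the tables it was -0.07, with 18 members above 0 and 39 below, beside 35.7% of all sequences above 0. The sign of the members' median thus rests on library 7 and on the labels. Library 2 lay outside the range of libraries 6 and 7 for 6 of the 8 marker lists, among them oligodendrocytes, with 4400 RPM against 4672 and 5062 RPM, and blood vessels, with 14865 RPM against 16362 and 17281 RPM, and their part was not tested. At an unadjusted p under 0.05 there were 2 members, beside 4.41% of all. These were miR-323-3p, with 253 RPM in library 2 and 154 and 175 RPM in libraries 6 and 7 (log2 difference -0.62, SE 0.22, adjusted p = 0.96 in limma), and miR-380-3p, with 5.82 RPM in library 2 and 8.78 and 9.98 RPM in libraries 6 and 7 (log2 difference 0.64, SE 0.27, adjusted p = 0.97). Both trained libraries lay on the same side of library 2 in each case. The other extremes were miR-544-3p, from 0.99 RPM to 2.61 and 1.60 RPM with a log2 difference of 0.78 (SE 0.43), and miR-379-3p at 0.36 (SE 0.20), and at the low end miR-494-3p at -0.53 (SE 0.31) and miR-300-5p at -0.51 (SE 0.34). miR-544-3p rested on 12.7 reads per library. With the trained libraries grouped as in the tables, the differences were smaller: 0.09 for miR-380-3p, -0.22 for miR-323-3p, 0.19 for miR-544-3p, 0.03 for miR-379-3p, -0.37 for miR-494-3p and -0.31 for miR-300-5p.

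The trained genotypes can be compared with replicates on both sides, libraries 6 and 7 against 3, 4 and 5, and share libraries with the comparisons above. No member was called by limma, edgeR or DESeq2, beside 0%, 0% and 0.21% of all sequences. The smallest adjusted p of a member was 0.64, and 3 members had an unadjusted p under 0.05, beside 7.14% of all sequences. The median log2 difference was 0.10, with 36 of 57 members above 0. Of all tested sequences 56.3% lay above 0, with a median of 0.04. With DESeq2 size factors the medians were 0.05 and -0.01, and without library 5 the median of the members was 0.006. The 95% interval lay within a log2 difference of 1 on both sides for 51 of the 57 members, and for 49 with a pseudocount of 0.1. This limit is on the scale of log2(RPM + 0.5), which understates changes of low members, so it is not a 2-fold limit for them.

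The labelled trained libraries did not overlap for 15 members. Of the 57 tested, 12 were higher in both trained NIPP1* libraries than in all trained controls, a share of 21.1% beside a background of 18.7%, and 3 were lower, 5.26% beside 7.77%. The share of the members was near that of all sequences in each direction. Of the 12, 7 came from the first 4 hairpins of the cluster, miR-379, miR-411, miR-299a and miR-380, which gave 8 members. This grouping was noticed after the values were seen and gets no test. It also depends on the scaling. With TMM factors miR-411-5p was no longer among the higher members, and with DESeq2 size factors neither arm of miR-411 was. The summed markers of oligodendrocytes also separated these libraries, with 3707, 3266 and 3513 RPM in the trained controls and 5062 and 4672 RPM in the trained NIPP1* libraries, and so did those of red blood cells, with 143.9, 74.35 and 74.45 RPM against 151 and 278 RPM. The other 6 marker lists overlapped between the trained groups, and the part of these cells in the 15 members was not tested. Without library 3 the count of higher members was 21 (background 34.2%) and without library 6 it was 23 (background 33%). The count of lower members was 8 without library 3 (24.2%), 8 without library 5 (12.2%), 5 without library 6 (16.6%) and 9 without library 7 (17.9%).

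Among these, miR-379-5p differed by 0.32 on the log2 scale (SE 0.11, 95% interval 0.06 to 0.58, adjusted p = 0.64 in limma). miR-380-3p had 6.83, 6.35 and 5.50 RPM in the trained controls and 8.78 and 9.98 RPM in the trained NIPP1* libraries, a difference of 0.56 (SE 0.20, adjusted p = 0.64). miR-380-5p, from the other arm of that hairpin, had 93.5, 75.3 and 68.6 RPM in the trained controls and 100.8 and 109 RPM in the trained NIPP1* libraries, a difference of 0.41 (SE 0.18). Both arms of miR-380 thus had the same sign, without overlap of the labelled groups. miR-323-3p had 224, 241 and 187 RPM in the trained controls and 154 and 175 RPM in the trained NIPP1* libraries, a difference of -0.40 (SE 0.16, adjusted p = 0.64). The other extremes were miR-544-3p at 0.59 (SE 0.32), miR-667-3p at -0.48 (SE 0.25) and miR-377-5p at -0.40 (SE 0.20). For miR-667-3p the labelled groups overlapped, since library 3 lay below library 6, and for miR-544-3p too, with 1.71 RPM in library 3 and 1.60 RPM in library 7. The sign of each of these differences turns when the trained libraries are grouped as in the tables, which exchanges the groups.

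Trained against non-trained over both genotypes stays the same when the trained groups are exchanged whole, as in the grouping of the tables. Each trained group has equal weight in it, against libraries 1 and 2. No member was called by limma, edgeR or DESeq2, beside 0%, 0% and 0.21% of all sequences, and the smallest adjusted p of a member was 0.87. The median log2 difference of the members was -0.06, that of all sequences -0.05, and 23 of 57 members and 39.5% of all sequences lay above 0. With DESeq2 size factors the medians were -0.004 and 0.005, and 28 members and 51.1% of all sequences lay above 0. At an unadjusted p under 0.05 there were 2 members, beside 3.36% of all, and without library 3 there were 5, beside 13.7% of all. For 54 of the 57 members the 95% interval lay within a log2 difference of 1 on both sides. No overlap was seen for 1 member that was higher in all trained libraries, 1.75% beside a background of 3.36%, and for 5 that were lower, 8.77% beside 8.19%. With DESeq2 size factors the lower members were 3 (background 4.83%). Without library 3 they were 9 (background 13.9%) and without library 7 they were 8 (13.7%). The higher ones were 2 without library 4 (4.41%) or without library 5 (3.99%). Of the marker lists, that of blood vessels did not overlap either, with 14890 and 14865 RPM in libraries 1 and 2 and between 15553 and 18540 RPM in the trained libraries, and its part in these members was not tested.

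The member higher in every trained library was miR-323-5p, with 4.72 and 4.09 RPM in libraries 1 and 2 and between 4.88 and 9.10 RPM in the trained libraries, a log2 difference of 0.35 (SE 0.26, adjusted p = 0.87 in limma). Library 4 held the highest value, library 5 followed at 6.14 RPM, and libraries 3, 6 and 7 lay between 4.88 and 5.08 RPM, just above library 1. Those lower were miR-329-5p, miR-494-3p, miR-1193-3p, miR-543-5p and miR-410-5p, of which miR-329-5p was the only one above 10 RPM. miR-410-5p had 2.59 and 2.48 RPM in libraries 1 and 2 and between 1.41 and 1.71 RPM in the 5 trained libraries, a difference of -0.52 (SE 0.21, adjusted p = 0.87), at 15.7 reads per library. miR-300-5p, the lowest member, had 87.3 and 70.5 RPM in libraries 1 and 2, 71.3, 56.5 and 45.2 RPM in the trained controls and 41.0 and 59.5 RPM in the trained NIPP1* libraries, a difference of -0.56 (SE 0.23, adjusted p = 0.87). Library 3 overlapped the non-trained pair. The partner arm miR-300-3p, with a mean of 572 RPM against 61.6 RPM, did not share this order, with 629 and 558 RPM in libraries 1 and 2 and between 511 and 660 RPM in the trained libraries. miR-543-5p had a difference of -0.46 (SE 0.24), and at the high end stood miR-299a-5p with 0.35 (SE 0.22) and miR-544-3p with 0.17 (SE 0.30).

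For 5 of the best-known members this comparison gave small differences with wide intervals. The log2 difference of trained against non-trained was -0.16 (95% interval -0.50 to 0.18) for miR-134-5p, 0.09 (-0.46 to 0.65) for miR-485-5p and 0.04 (-0.20 to 0.28) for miR-379-5p. It was 0.02 (-0.25 to 0.29) for miR-541-5p and -0.12 (-0.52 to 0.28) for miR-369-3p. None of these 5 intervals left out 0. Among the products with the highest mean of each best-known hairpin, the log2 difference ran from -0.29 for miR-154-3p to 0.15 for miR-377-5p.

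Whether training acted differently by genotype was asked by the difference between the training effects of NIPP1* and control mice, which uses all 7 libraries. No member was called by limma, edgeR or DESeq2, beside 0%, 0% and 0.42% of all sequences, and the smallest adjusted p of a member was 0.58. The median was 0.17 for the members and 0.03 for all tested sequences, with 39 of 57 members and 52.9% of all sequences above 0. Markers of oligodendrocytes went from 5461 RPM in library 1 to between 3266 and 3707 RPM in the trained controls, and from 4400 RPM in library 2 to 5062 and 4672 RPM in libraries 6 and 7. Those of red blood cells went from 131.9 RPM to 143.9, 74.35 and 74.45 RPM, and from 95.7 RPM to 151 and 278 RPM. Their part in the median of the members was not tested. At an unadjusted p under 0.05 there were 2 members, miR-380-3p and miR-323-3p, beside 7.77% of all. The highest differences were those of miR-544-3p (1.22, SE 0.59), miR-380-3p (1.11, SE 0.36, adjusted p = 0.58 in limma) and miR-380-5p (0.70, SE 0.33). The lowest were those of miR-323-3p (-0.78, SE 0.30, adjusted p = 0.58), miR-667-3p (-0.67, SE 0.46) and miR-485-3p (-0.59, SE 0.37). With the trained libraries grouped as in the tables, the median of the members was 0.01, and of these 6 members only miR-544-3p, at 0.04, kept its sign. The 95% interval lay within a log2 difference of 1 for 21 of 57 members, the fewest of the 5 comparisons. This count was between 11 and 20 with a trained control library left out, and 30 with the grouping of the tables. It was lower still with a trained NIPP1* library left out, which leaves that group without a replicate.

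**Figure D5:**
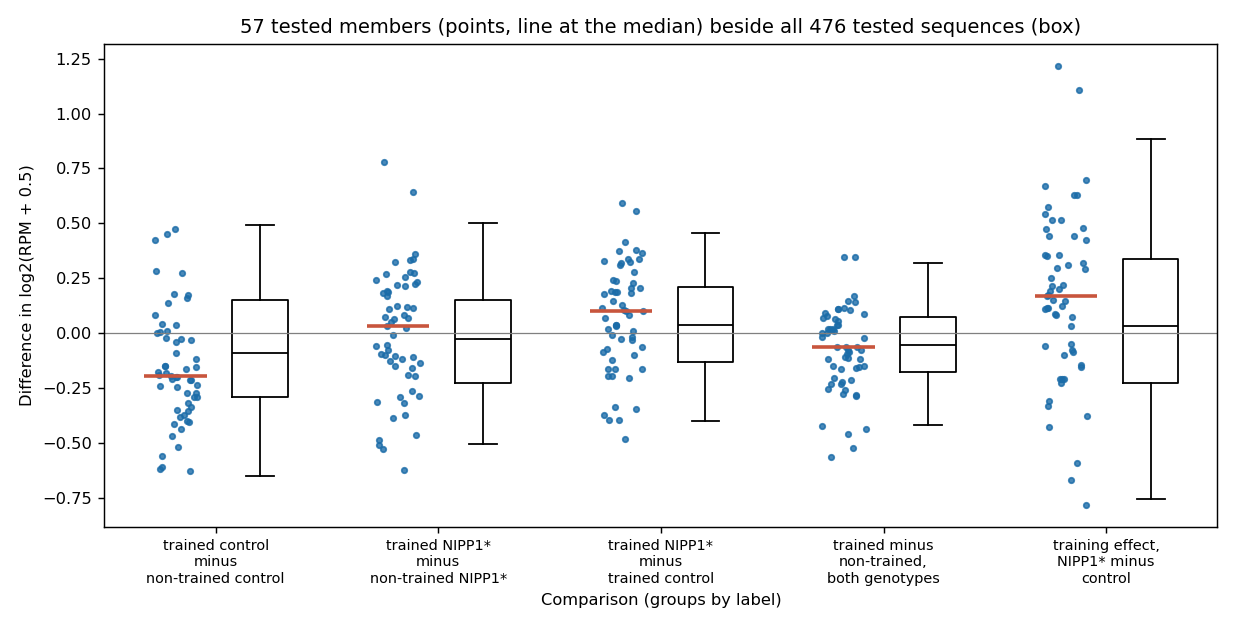
Difference in log2(RPM + 0.5) of the 57 tested members (points, with a red line at their median) in the 5 comparisons, beside all 476 tested sequences (box from the lower to the upper quartile with a line at the median, whiskers at the 5th and 95th percentiles). The members' medians run from -0.20 to 0.17 and those of all sequences from -0.09 to 0.04.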

How the data were processed

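Small RNA libraries of mouse hippocampus were made by the authors with a TruSeq kit, and trimmed inserts were sorted by size and mapped to mm9 with Bowtie in the ncPRO-seq pipeline. The headers of the deposited files carry the numbers 19 and 26, read here as the insert sizes in nt that they cover. The submitters' processing notes also name CASAVA 1.7.0 and bedtools. The deposited unit is the percent of a library's miRNA reads at each mature locus, and a repeated sequence carries all its reads at each copy. The deposited comparison tables hold a signal per group (mean reads over size factors, used to check the grouping) and the authors' fold changes and p-values, which were not used.

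Copies of a sequence were joined, giving 756 sequences of which 71 were members. Percents were converted to RPM, and the size of 1 read in each library was taken from its low values, which gave back whole reads (100% of values up to 100 reads were whole within 0.1 reads). The main test was limma 3.58.1 (R 4.3.3) with a trend on log2(RPM + 0.5), a scale that understates changes of low miRNAs, in a model of the 4 groups over all 7 libraries, for 476 sequences whose mean reached 10 reads, with p-values adjusted over all of them by Benjamini-Hochberg. The non-trained groups had 1 library each and are assumed to vary like the others. On simulated data of 476 sequences with large changes, between 94.5% and 99.5% of changes were recovered, with at most 4.35% false calls. These changes were larger than any difference of a member in the comparisons, and the simulated libraries had no deviations shared among sequences. The recovery therefore says nothing of the power to find changes as small as those seen. Between libraries 1 and 2 the log2 ratio of RPM was taken, and its 95% interval came from the exact binomial distribution given both counts. edgeR 4.0.16 (quasi-likelihood) and DESeq2 1.42.0 (Wald) were run on recovered reads as alternatives. Totals of 7285201 to 10017745 reads set the counting error, which amplified reads without molecular identifiers understate.

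Members, lists and tests were chosen with earlier results of these data known. Members are named by fixed rules: the best-known ones and ends of the cluster, the 6 most abundant, the 3 highest and 3 lowest per comparison, called ones, the 3 most uneven and 3 most even hairpins, and those sharing a seed. Others named beside them were chosen after their values were seen. Figures and tables used Python 3.11.15, numpy 2.4.6, scipy 1.17.1, pandas 2.3.3 and matplotlib 3.10.9.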

Additional observations from a re-analysis of the deposited data

How the results depend on the processing

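In all 5 tested comparisons the number of called members was 0 under every alternative run: TMM factors, DESeq2 size factors, edgeR, DESeq2, pseudocounts of 0.1 and 1, a minimum of 100 reads or none, only the groups compared where this could be fitted, each trained library left out in turn, and the grouping of the tables. Leaving out a non-trained library removes its group, so it was not run. No paired analysis was possible because the labels give no animal, day or replicate number that groups share. With the grouping of the tables the median log2 difference was -0.064 in trained against non-trained controls, -0.068 in trained against non-trained NIPP1* mice, -0.10 between the trained genotypes and 0.014 for the difference of the training effect. Left-out trained libraries gave medians from -0.23 to -0.13, from -0.02 to 0.07, from 0.006 to 0.16, from -0.11 to -0.03 and from 0.09 to 0.24 in the 5 comparisons in the order of the report. In NIPP1* mice the median for training was also below 0 with no minimum of reads (-0.056). The counts of members without overlap were chosen after seeing the data. With a trained library left out, they ranged between the trained genotypes from 13 to 23 (higher) and from 3 to 9 (lower). The backgrounds of all sequences were from 21.8% to 34.2% and from 10.3% to 24.2%. For trained against non-trained the counts ranged from 1 to 2 and from 5 to 9. Their backgrounds were from 3.57% to 6.30% and from 9.03% to 13.9%. With TMM factors these 4 counts were 11, 4, 1 and 4, beside 16.6%, 8.82%, 5.25% and 6.09% of all. With DESeq2 size factors they were 10, 4, 1 and 3, beside 15.1%, 10.3%, 6.09% and 4.83% of all. Fewer libraries make overlap less likely by construction. Between the non-trained libraries, 1 of 58 members passed a log2 ratio of 1 with a minimum of 10 reads, beside 7 higher and 7 lower of all 482 sequences. Of 424 alternatives for the 30 named differences, 412 kept their sign and their side of the threshold and 12 changed sign, all with the grouping of the tables. Between the trained genotypes these were miR-380-5p (-0.41), miR-380-3p (-0.56), miR-323-3p (0.40), miR-667-3p (0.48), miR-544-3p (-0.59) and miR-377-5p (0.40). For the difference of the training effect they were miR-380-5p (-0.13), miR-380-3p (-0.0042), miR-323-3p (0.014), miR-667-3p (0.29) and miR-485-3p (0.15), and in trained against non-trained controls miR-667-3p (-0.0071). That grouping exchanges the trained groups, and which assignment is right was not settled by the data. Without library 3, members with an unadjusted p under 0.05 numbered 10 instead of 3 between the trained genotypes, 7 instead of 1 in trained against non-trained controls, 5 instead of 2 in trained against non-trained over both genotypes and 9 instead of 2 for the difference of the training effect, beside 23.7%, 22.7%, 13.7% and 17.9% of all 476 sequences, with lowest adjusted p-values (limma) of 0.086, 0.072, 0.28 and 0.12.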
